A study of Mus musculus with 6 samples.

Results

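The core circadian clock genes were examined in tumors from the livers of 3 WT and 3 Nr2e3-/- mice, all male. They are 10 genes, Arntl, Clock, Npas2, Per1, Per2, Per3, Cry1, Cry2, Dbp and Tef, taken by symbol from a count table of 24063 genes, and all 10 had at least 1 count in every library. All 6 mice were of the C57BL/6 strain per the labels. The study's methods name C57BL/6J for the WT mice and state no background for the Nr2e3-/- mice. All had been injected intraperitoneally at 15 days of age with diethylnitrosamine (DEN, 25 mg per kg), which hepatocytes activate to a DNA-damaging carcinogen. Tumors were collected at the 24-week time point. WT mice were NR2E3+/+ and the others NR2E3-/-, and how that allele was made is not given in the sources used here. The mice lived in a light/dark cycle with food at all times. The hour at which tumors were taken is not given in the sources used here, and each library is a single time point of its mouse.

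The mammalian clock is a transcriptional loop. CLOCK or its relative NPAS2 pairs with BMAL1, the product of Arntl, and the pair binds E-box sequences to switch on the Per and Cry genes, whose proteins then inhibit the pair. A second loop, formed by the REV-ERB repressors (Nr1d1, Nr1d2) and the ROR activators, acts on Arntl through the sequence called RORE. A further layer consists of the PAR bZIP activators DBP, TEF and HLF and the repressor NFIL3, which compete for D-box sequences. In mouse liver the transcripts of Arntl and Npas2 run opposite in phase to those of Dbp, Tef and Per3, so that Arntl is at its lowest late in the light period when the others are high.

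The sequences through which these loops meet are shown as a description of the promoters. RefSeq promoter windows (GRCm38.p6, 250 bases before to 50 after a start) were found for 9 of the 10 genes, in 14 windows. Both strands were searched for the E-box CACGTG, the D-box as TTATGTAA or TTACGTAA, and RORE by its consensus. Per2 had no window. Among those 9 genes the D-box was found only in Per3, with 2 matches, and RORE only in Arntl. Of all 32851 promoter windows, 7.15% held the E-box, 1.06% the D-box and 0.773% RORE. Counted by gene, the shares were 8.09%, 1.23% and 0.918% of 27025 genes. The E-box was present in Per1, Cry1 and both windows of Tef. A match of letters is a description and does not show that a factor was bound. The capitals mark the matches, and each sequence is read 5′ to 3′ on the strand of its gene.
Per3, chr4:151044786-151044900, minus strand, D-boxes: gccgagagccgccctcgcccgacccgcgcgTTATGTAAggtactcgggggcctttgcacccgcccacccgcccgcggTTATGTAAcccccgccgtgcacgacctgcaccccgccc
Arntl, chr7:113207528-113207557, plus strand, RORE: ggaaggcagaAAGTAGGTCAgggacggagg
Per1, chr11:69098753-69098818, plus strand, E-box: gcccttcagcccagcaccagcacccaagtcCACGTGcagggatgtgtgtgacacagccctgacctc
Cry1, chr10:85185079-85185144, minus strand, E-box: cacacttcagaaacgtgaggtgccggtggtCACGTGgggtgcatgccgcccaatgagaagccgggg
Tef, chr15:81802516-81802581, plus strand, E-box: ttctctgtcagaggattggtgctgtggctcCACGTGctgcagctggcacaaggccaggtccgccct

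Libraries held 15376261 to 28690279 counts. Nr2e3 had 0 counts in all 6 libraries, so its own counts could not check the genotypes. Taking 3 counts as the limit that a count of 0 allows, this allows up to 0.105 to 0.195 CPM (counts scaled to the library total), a limit that covers counting error only. Nr2e3-/- replicate 1, the library with the fewest counts (15376261), stood apart from the other Nr2e3-/- libraries. Across 13572 genes its log2 CPM correlated with the WT libraries at r = 0.9732 to 0.9806, with replicate 3 at 0.9717 and with replicate 2 at 0.9516. Replicates 2 and 3 correlated with each other at 0.9795, and replicate 2 was the farthest from WT, at 0.9499 to 0.9584. Values without replicate 1 are given beside each clock gene, and each named gene of the other lists, whose call changed without it. Levels below are CPM normalized by edgeR's TMM method, fold changes are Nr2e3-/- over WT on the log2 scale, and tests are edgeR's quasi-likelihood F test, with p-values adjusted by the Benjamini-Hochberg method across the 13572 genes left by its low-count filter.

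In all 6 tumors Dbp and Tef had the highest levels of the clock genes, and Arntl and Npas2 the lowest. Per kb of exons in the WT tumors, Dbp averaged 76.0 CPM and Tef 46.7, followed by Per1 (9.54), Per2 (8.91), Cry2 (8.4), Per3 (7.1), Clock (3.8), Cry1 (3.15), Arntl (0.44) and Npas2 (0.0685). The ranges over the WT libraries did not overlap between Dbp, Tef and the next group. Per1, Per2, Cry2 and Per3 overlapped with their neighbours in this order, as did Clock and Cry1. In the Nr2e3-/- tumors Per3 averaged 3.46 CPM per kb and stood below Clock at 3.9, and the order of the other genes differed only in that Cry2 (9.12) was above Per1 (8.89). The level of Dbp per kb exceeded that of Arntl by 215, 137 and 183 times in WT replicates 1 to 3 and by 133, 163 and 133 times in the Nr2e3-/- replicates. A high Dbp beside a low Arntl was thus found in every library.

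**Figure D1:**
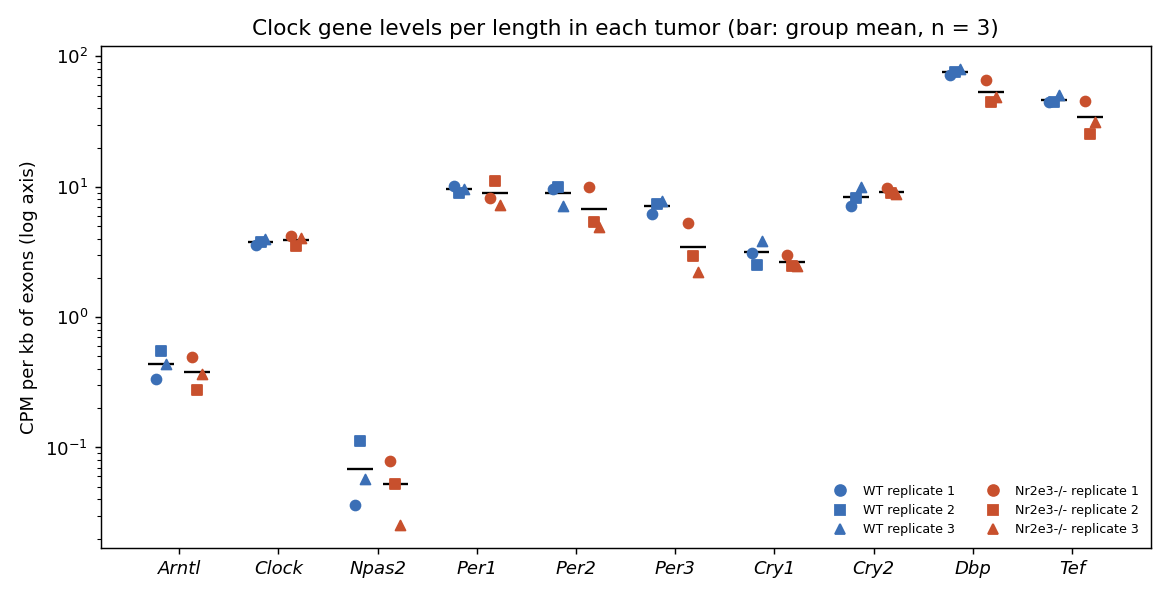
Level of each clock gene in CPM per kb of exons, on a log axis, in the 3 WT and 3 Nr2e3-/- tumors, each point a library and each bar a group mean. Dbp and Tef lie at the top and Arntl and Npas2 at the bottom in all 6 libraries, and Per3 is the gene with the widest gap between the group means.

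The activators of the loop, Clock, Arntl and Npas2, had values that overlapped between the genotypes. Clock (chromosome 5, 76209868 to 76304792) encodes the constitutive partner of BMAL1. It had 35.8, 37.8 and 39.7 CPM in the WT libraries and 41.2, 35.0 and 39.8 CPM in the Nr2e3-/- libraries. The groups overlapped over this narrow range, and the log2 fold change was 0.03 with an approximate 95% interval from -0.22 to 0.28 (edgeR adjusted p = 0.866). Its sign turned negative with upper quartile scaling and without Nr2e3-/- replicate 1.

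Arntl (chromosome 7, 113207465 to 113314126) was counted with only 21 to 50 reads per library. It had 1.04, 1.69 and 1.35 CPM in WT and 1.52, 0.854 and 1.14 CPM in Nr2e3-/- tumors. The groups overlapped in most of their range, with the lowest value in Nr2e3-/- replicate 2 and the highest in WT replicate 2, and the interval of the log2 fold change, from -1.01 to 0.52 around -0.24, is wide (edgeR adjusted p = 0.682, and -0.46 with adjusted p = 0.35 without Nr2e3-/- replicate 1). Npas2 (chromosome 1, 39193731 to 39363236), the substitute of Clock, had 2 to 14 reads per library, equal to 0.154, 0.474 and 0.243 CPM in WT and 0.331, 0.223 and 0.108 CPM in Nr2e3-/- tumors. It did not pass the filter on low counts, and a difference was not detectable at this depth.

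Among the Period genes, which encode the inhibitors whose accumulation closes the loop, the members differed from each other. Per3 (chromosome 4, 151003652 to 151044665), the Period gene with the D-boxes shown above, had 37.1, 44.4 and 46.3 CPM in WT and 31.5, 17.5 and 13.3 CPM in Nr2e3-/- replicates 1 to 3. All Nr2e3-/- libraries were lower than all WT libraries, replicate 1 by the least. The means were 42.6 ± 4.85 and 20.8 ± 9.53 CPM (SD, n = 3), a log2 fold change of -1.04 with a standard error of 0.30 (edgeR adjusted p = 0.136). Leaving out Nr2e3-/- replicate 1 gave -1.45 (edgeR adjusted p = 0.00397). Per3 overlaps the annotated gene Camta1, which was at 2.34 to 4.0 CPM and had a log2 fold change of -0.14.

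Per2 (chromosome 1, 91415982 to 91459324), which also responds to feeding and heat, had 56.1, 58.3 and 41.4 CPM in WT and 58.1, 31.3 and 28.7 CPM in Nr2e3-/- tumors. Replicate 1 lay at the upper WT values and replicates 2 and 3 below the lowest WT value. The log2 fold change was -0.40 (standard error 0.28, edgeR adjusted p = 0.427) and, without Nr2e3-/- replicate 1, -0.78 (edgeR adjusted p = 0.0214).

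Per1 (chromosome 11, 69095217 to 69109960), a known target of glucocorticoids, held an E-box in 1 of its 2 promoter windows. It had 56.8, 50.6 and 53.6 CPM in WT and 46.5, 62.6 and 40.9 CPM in Nr2e3-/- tumors. The highest and the lowest of the 6 values were both in Nr2e3-/- tumors, and the interval of the log2 fold change ran from -0.49 to 0.29 around -0.10. The sign turned to 0.03 without Nr2e3-/- replicate 3. Relative to Per1 in the same library, Per3 stood at 0.653, 0.878 and 0.862 in WT, at 0.677 in Nr2e3-/- replicate 1 and at 0.28 and 0.325 in replicates 2 and 3. A ratio of this kind does not depend on how the library was scaled, and it shows unequal levels of Per3 and Per1 without saying which of them differed.

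The cryptochromes, the repressors that bind the activator pair directly, showed small differences. Cry1 (chromosome 10, 85131700 to 85185064) had 9.48, 7.54 and 11.5 CPM in WT and 9.14, 7.46 and 7.52 CPM in Nr2e3-/- tumors. Cry2 (chromosome 2, 92403646 to 92434043) had 30.8, 35.6 and 43.0 CPM in WT and 42.2, 38.6 and 38.0 CPM in Nr2e3-/- tumors. The groups overlapped for both genes. The log2 fold changes were -0.25 (interval -0.70 to 0.21) for Cry1 and 0.12 (interval -0.21 to 0.45) for Cry2, with edgeR adjusted p-values of 0.477 and 0.641.

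Dbp and Tef, the activators of D-box genes, were lower in Nr2e3-/- replicates 2 and 3. Dbp (chromosome 7, 45705088 to 45710203), a direct and strongly rhythmic target of the activator pair, had 133, 138 and 148 CPM in WT and 121, 82.7 and 89.7 CPM in Nr2e3-/- tumors. All Nr2e3-/- libraries were below all WT libraries. The means were 139.5 ± 7.68 and 97.8 ± 20.3 CPM (SD, n = 3), a log2 fold change of -0.51 with a standard error of 0.16 (edgeR adjusted p = 0.147), and without Nr2e3-/- replicate 1 it was -0.69 (edgeR adjusted p = 0.00848). Dbp overlaps the annotated gene Sphk2 on the other strand, and the strand setting of the counting is not given, so reads of both cannot be told apart where they overlap. Sphk2 itself had 75.3, 82.2 and 84.5 CPM in WT and 78.9, 49.5 and 57.5 CPM in Nr2e3-/- tumors. It was thus low in the same Nr2e3-/- replicates, 2 and 3, as Dbp. Its log2 fold change was -0.38, with standard error 0.18. The part of Sphk2 reads in the level of Dbp was not tested.

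Tef (chromosome 15, 81802421 to 81826863), the gene with an E-box in both promoter windows, had 212, 209 and 238 CPM in WT and 215, 119 and 149 CPM in Nr2e3-/- tumors. Replicate 1 lay among the WT libraries and the other Nr2e3-/- libraries below them. The log2 fold change was -0.45 (standard error 0.21, edgeR adjusted p = 0.267) and, without Nr2e3-/- replicate 1, -0.71 (edgeR adjusted p = 0.0167).

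The counts of clock genes that passed a test were read against those of all genes. By edgeR, 0 of the 9 clock genes tested had an adjusted p-value under 0.05, where 0.0958% of all genes tested did. DESeq2 called 1 of them, Per3, and limma-voom 3 (Tef, Dbp and Per3), all lower, where DESeq2 called 8.0% of all genes tested (3.07% lower, 4.93% higher) and limma-voom 17.4% (7.91% lower). At an unadjusted p-value under 0.05 edgeR had 2 of the 9, Per3 and Dbp, both lower. This is 22.2% of the clock genes, against 21.5% of all genes in either direction and 9.72% in the lower direction. The groups did not overlap for the same pair, against 26.8% of all genes tested in either direction and 12.9% with all Nr2e3-/- libraries lower. The exact two-sided permutation test over the 6 libraries gave p = 0.1 for each of this pair, the smallest that 3 against 3 allow. The median log2 fold change was -0.25 over the 9 clock genes, with 7 below and 2 above 0, and 0.007 over all genes tested.

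Without Nr2e3-/- replicate 1, edgeR called 4 of the 9 clock genes, Per2, Per3, Dbp and Tef, all lower, where it called 21.8% of all genes tested in either direction and 9.65% as lower. Those 4 are the genes for which Nr2e3-/- replicates 2 and 3 lay furthest under the WT mean, by 0.69 to 1.47 on the log2 CPM scale. For Per2 and Tef, replicate 1 differed from the WT mean by 0.18 and -0.03 on that scale, and for Dbp and Per3 by -0.21 and -0.43.

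To judge phase, the log2 CPM of each gene was centred on its mean over the 6 libraries and averaged over the activator arm (Arntl, Clock and Npas2) and over the opposite arm (Per, Cry, Dbp and Tef). The activator arm stood at -0.25, 0.41 and 0.07 in WT and at 0.26, -0.22 and -0.26 in the Nr2e3-/- libraries. The opposite arm stood at 0.16, 0.17 and 0.28 in WT and at 0.13, -0.32 and -0.42 in the Nr2e3-/- libraries. In Nr2e3-/- replicates 2 and 3 both arms were thus below the mean of the 6 libraries, and not displaced in opposite directions. The difference of the arms ran from -0.41 to 0.24 in WT and from 0.09 to 0.16 in Nr2e3-/- tumors, inside the WT range. These averages are descriptions without a test, the activator arm rests largely on the low counts of Arntl and Npas2, and with a single time point per mouse neither phase nor amplitude was measured.

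**Figure D2:**
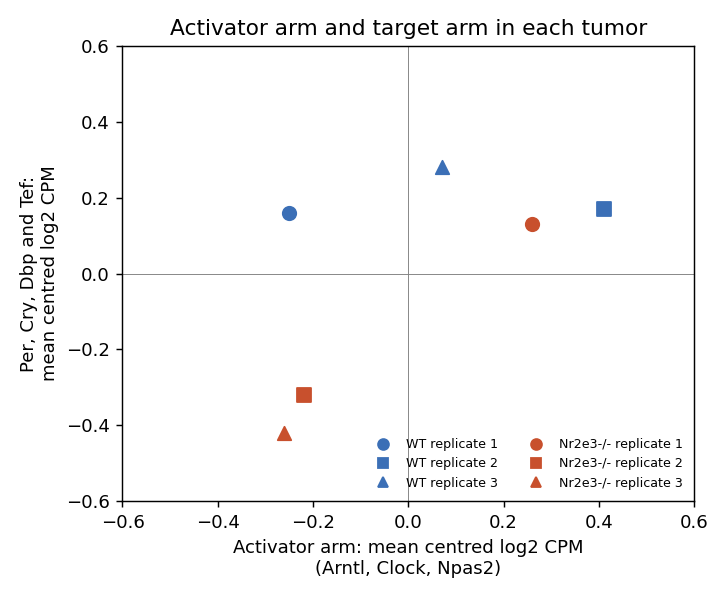
Mean centred log2 CPM of Arntl, Clock and Npas2 (horizontal axis) and of the Per and Cry genes, Dbp and Tef (vertical axis) in each tumor, with 1 point per library. Nr2e3-/- replicates 2 and 3 lie low on both axes, and Nr2e3-/- replicate 1, at 0.26 and 0.13, lies near the WT libraries.

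Correlations across the 6 libraries were computed between Arntl and the 9 other clock genes. The largest was with Tef (Pearson r = 0.73, exact permutation p = 0.124, Spearman rho = 0.49, exact p = 0.356), and the only negative r was with Per1 (r = -0.48, exact permutation p = 0.339, rho = -0.60, exact p = 0.242). After adjustment over the 9 relations the lowest exact permutation p was 0.323 for r and 0.436 for rho. Leaving out WT replicate 2 and Nr2e3-/- replicate 2, which lay farthest from the median of Arntl, gave r = 0.43 for Tef and -0.17 for Per1, and of the others it lowered r for Per2, Per3 and Dbp (0.25 to 0.29) and raised it for Clock (0.84), Npas2 (0.89), Cry2 (0.88) and Cry1 (0.33). At these counts of Arntl no opposition between the arms was detectable from library to library. Over the 6 libraries and 12185 genes of at least 1 CPM outside the lists, the genes with log2 CPM most like Arntl were Gchfr, Csnk2a1 and Mrps10 (r = 0.990, 0.990 and 0.984), and those most like Dbp included Sft2d2 and Sned1 (r = 0.999 and 0.998). As many as 1047 genes had r of at least 0.9 with Dbp and 99 with Arntl, so closeness to Dbp is shared by many genes of these libraries.

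The other loop genes were described as a list of 20, of which 19 passed the filter, all but Rorb. By edgeR 0 of the 19 had an adjusted p-value under 0.05 (3 by DESeq2 and 5 by limma-voom, which called 8.0% and 17.4% of all genes tested), and 5 passed 0.05 before adjustment, with 3 of them higher and 2 lower. This is 26.3% of the list against 21.5% of all genes tested. The median log2 fold change was -0.15, with 6 above and 13 below 0.

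Nfil3 (chromosome 13, 52967209 to 52981073), the repressor that competes with DBP, TEF and HLF for D-boxes, had the largest difference of the clock loop genes tested. It had 7.91, 9.13 and 9.78 CPM in WT and 13.2, 45.6 and 46.1 CPM in Nr2e3-/- tumors. All Nr2e3-/- libraries were higher, replicate 1 only slightly, and the log2 fold change was 1.97 (standard error 0.44, edgeR adjusted p = 0.102), or 2.36 without replicate 1 (edgeR adjusted p = 0.00106). Hlf (chromosome 11, 90336536 to 90390895), the remaining PAR bZIP activator, had 61.8, 78.7 and 74.2 CPM in WT and 82.2, 16.9 and 37.0 CPM in Nr2e3-/- tumors. Replicate 1 was the highest of the 6 libraries and replicates 2 and 3 the lowest, giving a log2 fold change of -0.67 (standard error 0.49, edgeR adjusted p = 0.452), or -1.41 without replicate 1 (edgeR adjusted p = 0.0258).

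The balance of these opposed D-box factors was expressed as the summed CPM of Dbp, Tef and Hlf over that of Nfil3, a ratio chosen after its values were seen. It was 51.4, 46.7 and 47.1 in the WT libraries, 31.7 in Nr2e3-/- replicate 1, and 4.79 and 5.98 in replicates 2 and 3. The numerator ran from 406 to 460.4 CPM in WT, was 418 in Nr2e3-/- replicate 1, and was 218 and 275 in replicates 2 and 3. The 2 libraries with the lowest ratio were also those with the lowest Per3, but in another order. The ratio was lowest in replicate 2 and Per3 in replicate 3. The part of this ratio in the level of Per3 was not tested.

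**Figure D3:**
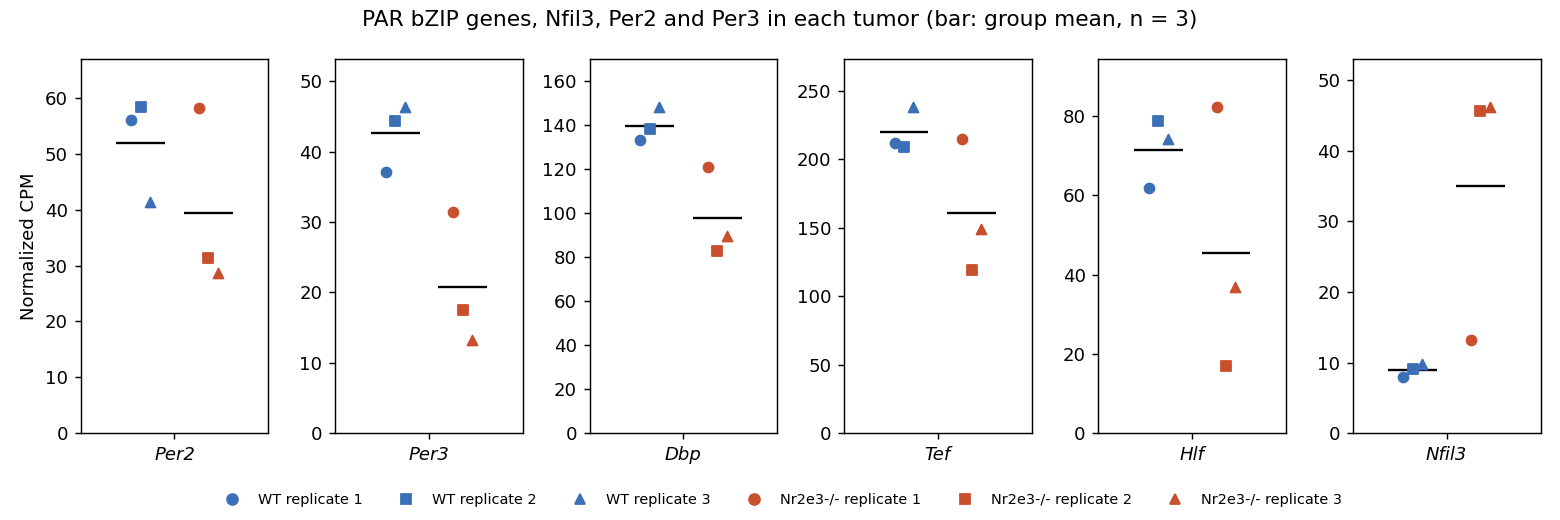
Normalized CPM of Per2, Per3, Dbp, Tef, Hlf and Nfil3 in each of the 6 tumors, each point a library and each bar a group mean (n = 3), with every vertical axis starting at 0. Nr2e3-/- replicates 2 and 3 are low in the first 5 genes and high in Nfil3, and replicate 1 is near the WT libraries in most panels.

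The second loop showed no such pattern in its repressors. Nr1d1, the REV-ERBα gene and like Dbp a direct target of the activator pair, had 67.6, 78.7 and 87.5 CPM in WT and 68.3, 81.4 and 68.2 CPM in Nr2e3-/- tumors. Nr1d2, its paralog, had 128, 112 and 153 CPM in WT and 122, 139 and 141 CPM in Nr2e3-/- tumors. The groups overlapped for both. The log2 fold changes were -0.10 (interval -0.42 to 0.21) for Nr1d1 and 0.03 (interval -0.30 to 0.37) for Nr1d2, the latter turning negative with upper quartile scaling and without WT replicate 2 or Nr2e3-/- replicate 3. Nr1d1 overlaps Thra on the other strand, with the same limit as for Dbp, and Thra stood at a log2 fold change of -0.73, with standard error 0.25. Of the ROR activators, Rora had a log2 fold change of -0.29, and -0.45 without Nr2e3-/- replicate 1 (edgeR adjusted p = 0.0744), and Rorb was at 0.0662 CPM or below in every library.

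Genes that act on the clock proteins or inhibit the activator pair went both ways. Cipc, an inhibitor of CLOCK, had 45.2 to 48.2 CPM in WT and 65.6 to 93.1 CPM in Nr2e3-/- tumors, or 0.66 on the log2 scale (standard error 0.16, edgeR adjusted p = 0.109, and 0.76 with adjusted p = 0.0188 without replicate 1). Csnk1d, the kinase that marks PER proteins for degradation, had 67.8 to 71.5 CPM in WT and 77.3 to 102 CPM in Nr2e3-/- tumors (log2 fold change 0.40, edgeR adjusted p = 0.153, and 0.52 with adjusted p = 0.0116 without replicate 1). Both were higher in all Nr2e3-/- libraries. Btrc, the ubiquitin ligase subunit that recognises phosphorylated PER, had 16.4 to 17.9 CPM in WT and 13.9, 8.32 and 8.87 CPM in Nr2e3-/- tumors (log2 fold change -0.72, edgeR adjusted p = 0.136, and -0.97 with adjusted p = 0.0045 without replicate 1), lower in every Nr2e3-/- library. Fbxl21, which acts on the stability of CRY proteins, had a log2 fold change of -0.80 at 1.0 to 3.52 CPM, lower in every Nr2e3-/- library.

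The remaining loop genes overlapped between the groups except Nampt. The E-box repressors Bhlhe40 and Bhlhe41 had log2 fold changes of -0.37 and 0.56, and Ciart, another inhibitor of the activator pair, -0.15. Without Nr2e3-/- replicate 1 Bhlhe41 was at 0.84 (edgeR adjusted p = 0.0178) and Ciart at -0.59 (edgeR adjusted p = 0.042). Nampt, an E-box target that makes NAD, was lower in all Nr2e3-/- libraries with a log2 fold change of -0.27. Usp2, a clock-driven deubiquitinase gene, had 44.4 to 61.3 CPM in WT and 63.0, 8.06 and 29.3 CPM in Nr2e3-/- tumors, with replicates 2 and 3 the lowest (log2 fold change -0.69, and -1.54 without replicate 1, edgeR adjusted p = 0.0687). Csnk1e had a log2 fold change of -0.21, Timeless of -0.15 and Arntl2 of -0.11. Without Nr2e3-/- replicate 1, edgeR called 8 of the loop genes and 21.8% of all genes tested, among the former Nfil3, Cipc, Csnk1d and Bhlhe41 as higher and Hlf, Btrc and Ciart as lower.

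**Figure D4:**
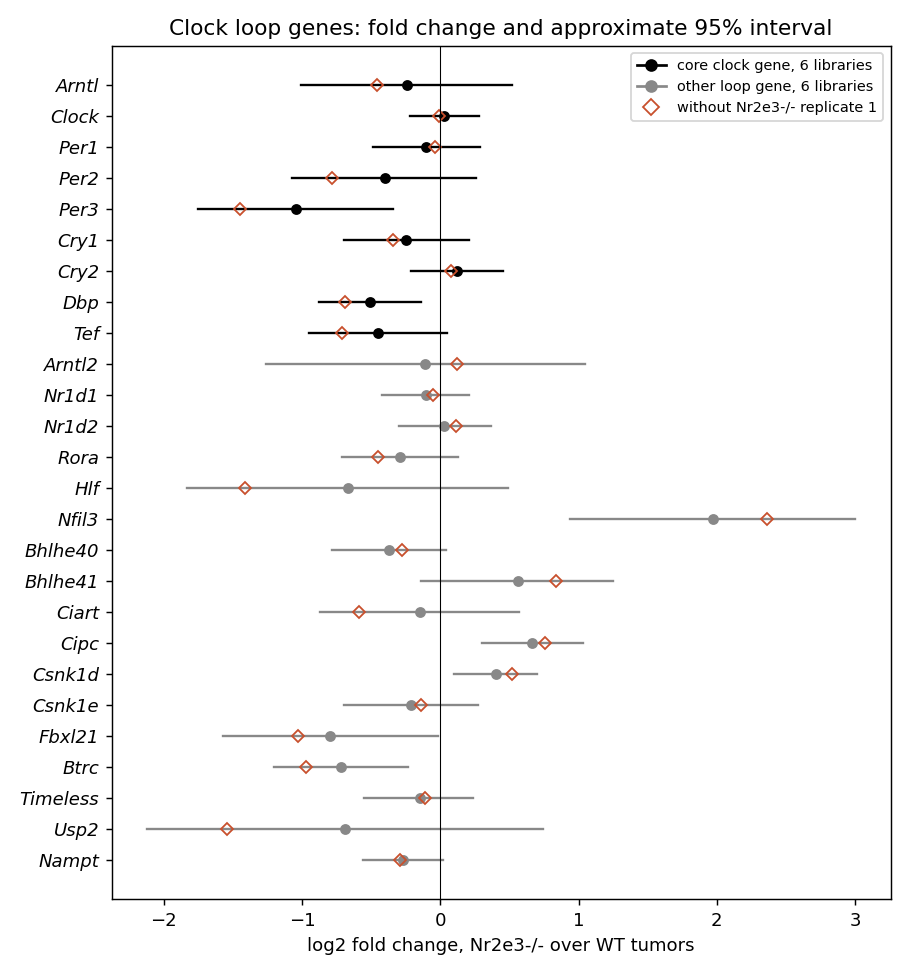
Log2 fold change of Nr2e3-/- over WT tumors for the 9 clock genes (black) and other loop genes (grey) that passed the filter, with the approximate 95% interval as a line and the value without Nr2e3-/- replicate 1 as an open diamond. Nfil3 lies furthest to the right at 1.97 and Per3 furthest to the left at -1.04, and the intervals of Clock, Per1, Cry2, Nr1d1 and Nr1d2 are short and include 0.

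Liver outputs of the clock were described as a list of 18 genes known to be rhythmic in mouse liver, all of which passed the filter. By edgeR 0 had an adjusted p-value under 0.05 (3 by DESeq2, 6 by limma-voom and 3 by edgeR without Nr2e3-/- replicate 1, where these fits called 8.0%, 17.4% and 21.8% of all genes tested), and 7 passed 0.05 before adjustment, with 4 of them higher and 3 lower, or 38.9% against 21.5% of all genes tested. The median log2 fold change was 0.09, with 10 above and 8 below 0. The 3 highest were Tsc22d3, a glucocorticoid-induced leucine zipper gene (0.90), Tspan4 (0.82) and Lpin1, a phosphatidate phosphatase gene (0.65). Among the 3 lowest were Cyp7a1, the rate-limiting enzyme of bile acid synthesis (-1.12), and Nr1i3, the receptor CAR (-0.84). The groups overlapped for these genes. Without Nr2e3-/- replicate 1 Tspan4 was at 1.08 (edgeR adjusted p = 0.0082), Tsc22d3 at 0.41, Lpin1 at 0.35, Cyp7a1 at -1.72 and Nr1i3 at -1.13.

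A pair of outputs named after their values were seen had the pattern of the D-box factors or of Per3. Wee1, a cell cycle kinase gene driven through E-boxes, had 26.0, 27.3 and 29.9 CPM in WT and 21.6, 16.3 and 15 CPM in Nr2e3-/- tumors, lower in each (log2 fold change -0.65, edgeR adjusted p = 0.113, and -0.81 with adjusted p = 0.00672 without replicate 1). Upp2, a uridine phosphorylase gene, had 321, 287 and 496 CPM in WT and 441, 132 and 107 CPM in Nr2e3-/- tumors, where replicate 1 lay within the WT range (log2 fold change -0.70, edgeR adjusted p = 0.464, and -1.61 with adjusted p = 0.0108 without it).

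Other signals known to reach the clock genes moved with some of these libraries. Of 9 acute phase genes, all had a positive log2 fold change (median 1.32), and Saa1 had 19.9 to 49.3 CPM in WT, 138 in Nr2e3-/- replicate 1, and 1028 and 1089.8 CPM in replicates 2 and 3 (log2 fold change 4.54, edgeR adjusted p = 0.093, and 5.04 with adjusted p = 0.00156 without replicate 1); Nfil3 was likewise highest in replicates 2 and 3. The summed CPM of the acute phase list was 5323 to 8484 in WT and 6524, 19748 and 13792 in the Nr2e3-/- libraries. By edgeR 0 of the 9 had an adjusted p-value under 0.05 and 6 passed 0.05 before adjustment, all higher, where 21.5% of all genes tested passed in either direction and 11.8% as higher. The part of the acute phase in the levels of the clock genes was not tested.

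Of 10 glucocorticoid-responsive genes, 8 had a positive log2 fold change (median 0.65). By edgeR 0 had an adjusted p-value under 0.05, and 6 passed 0.05 before adjustment (60.0%, against 21.5% of all genes tested), with 5 of them higher. Zbtb16 had 14.0 to 19.0 CPM in WT and 73.8, 42.6 and 57.5 CPM in Nr2e3-/- tumors, and Fkbp5 had 81.7 to 83.5 CPM in WT and 224, 148 and 269.6 CPM in Nr2e3-/- tumors. Both were higher in every Nr2e3-/- library, replicate 1 included, with log2 fold changes of 1.76 and 1.38 (edgeR adjusted p = 0.07 and 0.0844) and, without replicate 1, of 1.56 and 1.35 (edgeR adjusted p = 0.00434 and 0.0122), while Per1 of the same list had a log2 fold change of -0.10. Of 12 feeding and fasting genes 8 were above and 4 below 0 (median 0.13), and 2 had an unadjusted p-value under 0.05, or 16.7% against 21.5% of all genes tested. Their part in the levels of the clock genes was not tested.

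The tumors were checked against cell type markers. By edgeR over all 6 libraries, 0 genes in any marker list had an adjusted p-value under 0.05. Without Nr2e3-/- replicate 1, edgeR called 21.8% of all genes tested. The 8 hepatocyte markers summed to 154890.4 to 188407 CPM in WT and 149810.1 to 171313 CPM in Nr2e3-/- tumors. Alb made up most of this sum. Of the 8, 4 had a log2 fold change above 0 and 4 below. Fga was higher in every Nr2e3-/- library (log2 fold change 1.19, and 1.47 with edgeR adjusted p = 0.00318 without replicate 1). The 7 immune markers found in the table summed to 131 to 169.7 CPM in WT and to 127, 291 and 163 in Nr2e3-/- replicates 1 to 3, so that replicate 2 was the highest. Clec4f of Kupffer cells made up most of this sum. The neutrophil marker S100a8 was at 0.653 to 1.05 CPM in WT and at 0.728, 8.61 and 5.57 CPM in Nr2e3-/- replicates 1 to 3, high in the same libraries as Nfil3 (log2 fold change 2.65, edgeR adjusted p = 0.134, and 3.15 with adjusted p = 0.00275 without replicate 1). The 6 stromal markers summed to 224 to 243 CPM in WT and to 252, 149 and 144 CPM in the Nr2e3-/- replicates. This sum was low in the same libraries as Per2, Tef and Hlf. Dcn and Col3a1 made up most of it, with log2 fold changes of -0.39 and -0.57. Without replicate 1 these were -0.59 and -1.11 (edgeR adjusted p = 0.0199 and 0.044). Of the 6, 4 had a log2 fold change below 0, and 2, Acta2 and Lrat, were at 0.02. The 6 endothelial markers summed to 314 to 329 CPM in WT and 277 to 335 CPM in Nr2e3-/- tumors, with single genes going both ways. Kdr and Stab2 were lower in every Nr2e3-/- library (log2 fold changes -0.61 and -0.18) and Lyve1 higher (0.82). Without replicate 1 Kdr was at -0.78 and Lyve1 at 0.78 (edgeR adjusted p = 0.00696 and 0.0456). The 5 bile duct markers summed to 10.2 to 13.3 CPM and 12.8 to 18.6 CPM. Of the 4 tested, 2 were below 0 and 2 above, among the latter Epcam at 1.58 (2.02 with edgeR adjusted p = 0.00808 without replicate 1). No defining marker was at 0 in any library. Fewer cells of a type and less RNA per cell cannot be told apart in such bulk samples, and the part of cell type content in the levels of the clock genes was not tested.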

How the data were processed

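RNA from liver tumors of 3 WT and 3 Nr2e3-/- mice was sequenced from TruSeq libraries. The authors aligned single-end reads to mm10 with TopHat, counted them per gene with FeatureCounts and deposited raw counts, with no strand setting given in the sources used here. The deposited normalized table and the authors' comparison table (fold changes with p-values) were not used. Samples were grouped by their titles, while the DEN regimen and week of collection came from the study's text.

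The deposited counts went into edgeR 4.0.16 (R 4.3.3): filterByExpr (minimum count 10, minimum total count 15), TMM, and the two-sided quasi-likelihood F test, called at an adjusted p-value under 0.05. Log2 CPM used a prior count of 2. Standard errors are the log2 fold change over the root of F, and intervals use its t quantile. Depth was 15376261 to 28690279 counts per library, and intervals cover the spread between the 3 mice of a group. Gene positions and exon lengths came from GENCODE M21 (GRCm38). All 10 symbols were found directly, and Noct, Tf and Adgre1 under older symbols. Named are the 10 clock genes, the loop genes, the 3 highest and 3 lowest outputs, and the 3 genes most like Arntl and Dbp, of which some are not reported here. The members and lists were chosen with earlier results of these data known, and the lists were compiled by hand from general knowledge. Alternatives were RLE or upper quartile scaling, DESeq2 1.42.0, limma-voom (limma 3.58.1) with quality weights, a block for replicate number, a looser filter (1 count) and a stricter one (10 counts in each library), a prior count of 0.5, and leaving out each library. In simulated counts of 3 against 3 libraries, edgeR found 48 of 100 genes shifted by 1 and 100 of 100 shifted by 2 on the log2 scale. It made 4 false calls among 13554 genes tested. The simulation gave every gene the same dispersion in both groups, shifted only well-counted genes and held no library set apart like Nr2e3-/- replicate 1. Its rates therefore do not give the power in these tumors. Figures were drawn with matplotlib 3.10.9.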

Additional observations from a re-analysis of the deposited data

How the results depend on the processing

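Over all genes, edgeR called 13; upper quartile scaling gave 8, DESeq2 1096, limma-voom 2360, a filter of only 1 count 70, one of 10 counts in each library 7, the replicate block 0, and leaving out a library between 0 and 3022, the most without Nr2e3-/- replicate 1. For the clock genes, 0 were called, 1 by DESeq2, 3 by limma-voom, and 0 to 4 with a library left out. For the other loop genes these counts were 0, 3, 5 and 0 to 8, and for the liver outputs 0, 3, 6 and 0 to 3. Each nonzero count with a library left out came without Nr2e3-/- replicate 1. The RLE and filter alternatives gave 0 calls in the 3 lists.

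Across the 14 fits the log2 fold change of Per3 ran from -1.45 to -0.80, of Dbp from -0.69 to -0.40, of Tef from -0.71 to -0.27, of Per2 from -0.78 to -0.22 and of Nfil3 from 1.73 to 2.36. Signs turned for Clock with upper quartile scaling (-0.05) and without Nr2e3-/- replicate 1 (-0.01), for Nr1d2 with upper quartile scaling (-0.05) and without WT replicate 2 (-0.07) or Nr2e3-/- replicate 3 (-0.00), for Arntl2 with limma-voom (0.09) and without WT replicate 2 (0.34) or Nr2e3-/- replicate 1 (0.12), for Per1 without Nr2e3-/- replicate 3 (0.03), and for Ciart without Nr2e3-/- replicate 2 (0.02) or 3 (0.05). With a library left out, Clock ranged from -0.01 to 0.10, Per1 from -0.29 to 0.03, Arntl2 from -0.48 to 0.34, Nr1d2 from -0.07 to 0.16 and Ciart from -0.59 to 0.05. The cause was not tested. The difference of the arms was nearly unchanged with RLE scaling. With a prior count of 0.5 it ran from -0.44 to 0.3 in WT and from 0.08 to 0.17 in Nr2e3-/- tumors. Nr2e3-/- replicate 3 went from 0.16, the highest of its group, to 0.08, the lowest.

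The replicate numbers did not pair the samples. Deviations from the group means of same-numbered libraries correlated at -0.077, 0.221 and 0.023, and not every library correlated best with its own number. With the replicate block, Per3 was at -1.12 and 0 clock genes were called. Low counts limit Arntl and Npas2.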
